A study of Mus musculus with 8 samples.

Results

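The 45 genes described here encode the proteins that carry glucose carbon from the cell surface to the citrate cycle: 19 of glucose uptake and glycolysis, 8 of lactate exchange and pyruvate entry into mitochondria, and 18 of the citrate cycle. They were chosen by symbol, as 45 of the 55414 genes in the count table. The 8 libraries were made from cells of mouse colon at 4 weeks of age, sorted with antibodies to CD24 and CD56 and labelled as neurons of the gut wall, the enteric neurons. In 4 libraries the genotype was WT and in 4 it was Emb knockdown (Emb_kd in the library names), with 4 mice of each genotype used. Each tube held about 250 cells, and the labels do not say that 1 tube stood for 1 mouse. Every p-value therefore sets the difference between genotypes only against the scatter of these libraries, which may be technical in part. The sources used here do not give the way in which Emb was lowered, or in which cells.

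Glycolysis splits glucose into pyruvate in the cytosol and yields a little ATP without oxygen. Lactate dehydrogenase turns pyruvate into lactate and back, while the mitochondrial pyruvate carrier and the pyruvate dehydrogenase complex deliver pyruvate carbon to the citrate cycle as acetyl-CoA, and the cycle feeds electrons to the respiratory chain. Neurons rely heavily on the oxidative route and can take up lactate through monocarboxylate transporters. Embigin, the product of Emb, is a membrane glycoprotein that accompanies such transporters to the cell surface.

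The targeted gene, Emb, was sparse in all libraries. WT replicates 1 to 4 gave 4, 6, 22 and 16 counts of it, and Emb knockdown replicates 1 to 4 gave 5, 25, 3 and 5. The library labelled Emb knockdown 2 held the most Emb counts of all 8 libraries, and its Emb level of 13.3 CPM lay inside the WT range of 5.15 to 22.5 CPM. CPM here are counts relative to the library size after scaling by TMM, a method that sets most genes to an equal level between libraries. The log2 fold change of Emb was -1.24 ± 0.82 (SE; edgeR quasi-likelihood test, adjusted p = 0.529). Library totals ran from 698930 to 954191 counts for WT and from 2024372 to 2712754 for Emb knockdown, without overlap (exact two-sided permutation p = 0.0286, the smallest that 4 against 4 allows). The ribosomal RNA gene Rn18s-rs5 took 3.55 to 13.0% of the counts in WT and 29.2 to 42.5% in Emb knockdown. The 45 members together held 504 to 5348 counts per library. Depth and ribosomal RNA content moved with genotype, and their part in the results below was not tested.

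Of 10 enteric neuron markers, Elavl3 was the only one at 3 or more times background in every library (8.85 to 26.1 times). Background is the level per exonic kilobase of 1504 olfactory, vomeronasal and trace amine receptor genes in the same library, which colon cells are not known to use broadly. Emb lay at 0.438 to 2.17 times background in WT and at 0.190 to 2.00 times in Emb knockdown. Its counts therefore cannot show which libraries kept Emb. Uchl1, a neuronal hydrolase, ranged from 0 to 237 times background, while 7 of the other markers lay between 0 and 6.73 times. The neuron list summed to 237 to 446 CPM in WT and 179 to 496 CPM in Emb knockdown. The median neuron marker lay at 1.18 to 2.00 times background in WT and at 0.826 to 2.62 times in the Emb knockdown libraries. The median of 6 enteric glia markers lay at 2.38 to 9.39 and at 7.47 to 43.8 times, above that of the neuron markers in both genotypes. The 10 macrophage markers summed to 2035 to 7561 and 3892 to 6065 CPM, and their median lay at 1.93 to 6.08 times background for WT and at 19.7 to 78.0 times for Emb knockdown, without overlap. The 6 fibroblast markers summed to 72.0 to 216 CPM in WT and 256 to 497 CPM in Emb knockdown, with no overlap between the groups. The colon epithelium list summed to 174 to 211 CPM in WT and 113 to 232 in Emb knockdown, smooth muscle to 57.6 to 92.0 and 39.4 to 67.3, and endothelium to 354 to 2001 and 153 to 1390. Interstitial cells of Cajal gave 11.6 to 55.5 and 21.3 to 32.9 CPM, and erythrocytes 0 to 582 and 0.530 to 9.33 CPM. No marker of these lists was at 0 in every library, and the part of these other cells in the results was not tested. In such bulk libraries, fewer cells of a type and less RNA per cell cannot be told apart.

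Promoters of Hk2, Suclg1 and Ldha are shown because Hk2 and Suclg1 had the smallest unadjusted p-values of the 31 tested members and Ldha is a textbook target of hypoxia signalling. Each run holds the 250 bases before the first start that RefSeq lists on GRCm38.p6, on the strand of the gene and 5′ to 3′. Capitals mark ACGTG on either strand (CACGT on the printed one), the core of the site that hypoxia-inducible factors bind; the palindrome CACGTG, which Myc and its relatives also bind, counts as 1 stretch.
Hk2 (chr6:82774455-82774704, minus strand): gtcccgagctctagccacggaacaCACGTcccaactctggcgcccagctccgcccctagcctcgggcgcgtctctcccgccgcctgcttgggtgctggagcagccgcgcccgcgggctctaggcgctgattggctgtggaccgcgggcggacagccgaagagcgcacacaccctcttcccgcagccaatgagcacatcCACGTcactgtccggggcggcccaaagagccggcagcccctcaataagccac
Ldha (chr7:46845554-46845803, plus strand): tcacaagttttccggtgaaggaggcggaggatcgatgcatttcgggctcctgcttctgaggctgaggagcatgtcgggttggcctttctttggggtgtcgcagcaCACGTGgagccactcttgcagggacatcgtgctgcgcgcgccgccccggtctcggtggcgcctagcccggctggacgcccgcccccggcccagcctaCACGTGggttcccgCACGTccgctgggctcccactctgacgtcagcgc
Suclg1 (chr6:73248255-73248504, plus strand): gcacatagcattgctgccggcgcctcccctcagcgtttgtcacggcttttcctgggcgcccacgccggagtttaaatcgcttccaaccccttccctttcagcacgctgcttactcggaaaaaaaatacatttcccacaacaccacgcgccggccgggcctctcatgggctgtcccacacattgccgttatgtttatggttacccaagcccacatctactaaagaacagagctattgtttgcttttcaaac
The Hk2 run holds 2 stretches, the Ldha run 3 and the Suclg1 run 0. In the GENCODE positions used here, Suclg1 starts at 73248382, inside its run, and Ldha at 46841475, upstream of its run. Among the 42 members with a promoter entry (Slc2a3, Idh3a and Sdhc had none), 13 held the motif (31%), against 4477 of all 27025 promoters of the same length (16.6%). These are matches of letters and show no binding.

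Of the 45 genes, 31 had enough counts to be tested, 14 of glycolysis, 5 of lactate and pyruvate entry and 12 of the citrate cycle. A gene was tested when its level reached 6.71 CPM of the unscaled library total in at least 4 libraries. No member passed the Benjamini-Hochberg adjusted p of 0.05 in edgeR's quasi-likelihood test, and neither did any of the 11353 genes tested (0%). The lowest adjusted p among members was 0.295, and among all genes 0.0719. An unadjusted p under 0.05 was reached by 6 members, against 13.3% of all genes tested: Hk2, Pdhb, Suclg1, Sdha, Sdhd and Mdh2. All 6 had higher values in Emb knockdown, where 8.64% of all genes had such a p in that direction and 4.64% in the other. A positive log2 fold change was found in 22 of the 31 members and in 51.6% of all genes tested. In TMM-scaled CPM, every Emb knockdown library lay above every WT library for 2 members, Pdhb and Suclg1 (4.03% of all genes tested). In 0 members every one lay below (4.25%). Relative to unscaled library totals the genotypes overlapped for both genes. There WT 3 (7 counts of each in 954191) lay above Emb knockdown 3 (14 of each in 2024372).

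**Figure D1:**
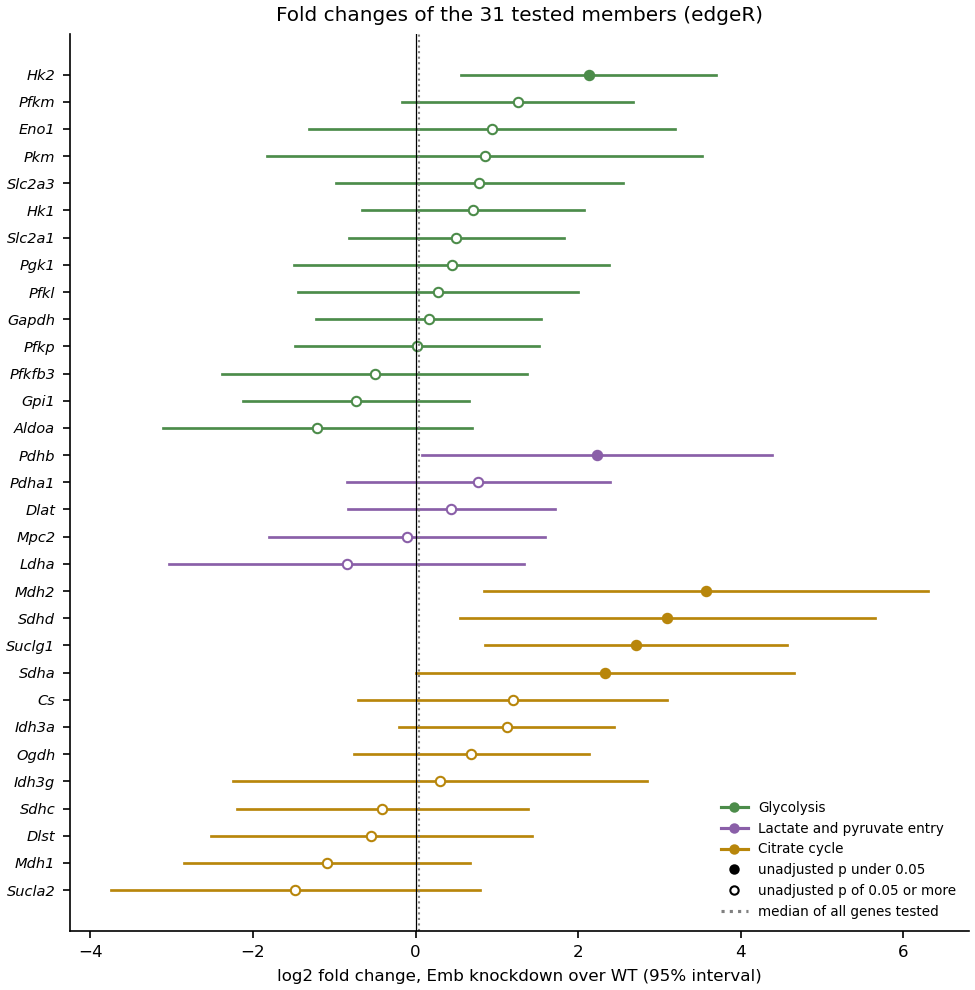
Log2 fold change of each tested member (dots) with its 95% interval (lines) from edgeR, Emb knockdown over WT, ordered within the 3 groups of steps and coloured by group; filled dots have an unadjusted p under 0.05 and the dotted line is the median of all genes tested. The filled dots are Hk2, Pdhb, Suclg1, Sdha, Sdhd and Mdh2, all right of 0, and 4 of them belong to the citrate cycle.

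Glucose uptake and phosphorylation open the pathway. In all sentences below, 4 values of a genotype stand in the order of replicates 1 to 4, and fold changes are log2 values of Emb knockdown over WT with their SE, tested with edgeR. Slc2a1, the basal glucose transporter GLUT1, was at 37.3, 13.8, 10.7 and 32.3 CPM in WT and at 48.6, 35.0, 27.6 and 21.3 CPM in Emb knockdown (0.50 ± 0.61, adjusted p = 0.761). Slc2a3, the neuronal transporter GLUT3, was at 5.15, 55.2, 16 and 18.3 CPM in WT and at 59.96, 28.6, 9.19 and 65.8 CPM in Emb knockdown (0.79 ± 0.80, adjusted p = 0.705). For both transporters the ranges of the genotypes overlapped, and Slc2a3 ran over nearly the same span in WT as in Emb knockdown.

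Hexokinase commits glucose to the cell by phosphorylating it. Hk1, the form that most neurons use, was at 11.6, 18.4, 16 and 14.1 CPM in WT and at 7.33, 22.8, 25.9 and 42.0 CPM in Emb knockdown (0.70 ± 0.62, adjusted p = 0.650). Its lowest and its highest library were both Emb knockdown. Hk2 (chromosome 6, 82725025 to 82774454, GRCm38), the inducible hexokinase, was at 25.7, 14.9, 29.7 and 14.1 CPM in WT and at 171, 22.8, 113 and 65.2 CPM in Emb knockdown. The library labelled Emb knockdown 2 lay inside the WT range and the other 3 lay above it. The log2 fold change of Hk2 was 2.13 ± 0.72 (edgeR, unadjusted p = 0.0123, adjusted p = 0.308).

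The middle of glycolysis showed values in both directions. Gpi1, which turns glucose 6-phosphate into fructose 6-phosphate, was at 33.5, 43.7, 35.0 and 18.3 CPM in WT and at 14.7, 15.9, 7.57 and 40.7 CPM in Emb knockdown (-0.73 ± 0.64, adjusted p = 0.644). Emb knockdown replicates 1 to 3 were below all WT libraries and replicate 4 was among the highest. Pfkm, the muscle form of phosphofructokinase, was at 5.15, 6.90, 7.61 and 14.1 CPM in WT and at 23.3, 26.0, 7.57 and 23.8 CPM in Emb knockdown (1.26 ± 0.65, adjusted p = 0.422). Emb knockdown replicate 3 lay inside the WT range and the other 3 above it. Aldoa, the main aldolase, was at 15.4, 41.4, 6.09 and 7.03 CPM in WT and at 0.666, 10.1, 9.73 and 9.40 CPM in Emb knockdown (-1.21 ± 0.87, adjusted p = 0.565). The lowest of these values stood for 1 count. The table also holds an upstream record under the symbol Aldoa, on chromosome 7 at 126800790 to 126809108, which had 0 to 15 counts per library and was kept apart.

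Enolase makes phosphoenolpyruvate, and its 2 genes each had 1 library that set their level. Eno1, the widely used form, was at 10.3, 29.9, 39.6 and 26.7 CPM in WT and at 7.99, 7.42, 12.4 and 177 CPM in Emb knockdown. Emb knockdown 4 held 283 counts of it. Emb knockdown 1 and 2 lay below every WT library, and Emb knockdown 3 lay below every WT library except WT 1. The log2 fold change was 0.94 ± 1.03 (edgeR adjusted p = 0.729) with all libraries and -1.50 without Emb knockdown 4. Eno2, the neuronal enolase long used as a marker of neurons, was at 0, 27.6, 2.28 and 6761 CPM in WT and at 0, 24.4, 1.08 and 4.39 CPM in Emb knockdown. WT 4 alone held 4811 of its counts, 956 times background, and in WT 1 and Emb knockdown 1 a count of 0 allows up to 3.86 and 2.00 CPM. Eno2 reached the filter level in too few libraries to be tested.

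The other 6 tested genes of glycolysis, Pfkl, Pfkp, Pfkfb3, Gapdh, Pgk1 and Pkm, had log2 fold changes of -0.50 to 0.85 and adjusted p of 0.806 to 0.995 (edgeR). They cover the liver and platelet forms of phosphofructokinase, the enzyme that makes its activator, and the steps that yield ATP. The untested Pfkfb2, Aldoc, Tpi1 and Pgam1 lay between 0 and 27.6 CPM, with means over 8 libraries of 3.63 to 8.92 CPM. Gapdh, chosen here after its values were seen, has 89 annotated pseudogenes with at least 95% identity over 200 or more bases; together they had 282 counts over the WT libraries and 459 over those of Emb knockdown, more than the 66 and 149 counts of Gapdh itself. The sources used here do not say how reads were divided among such copies, so the level of Gapdh is uncertain. The same holds for the 12 other members with such copies, among them Ldha with 5, Pgk1 with 4, Eno1 with 3 and Pdhb with 1.

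At the pyruvate branch point, the lactate dehydrogenase genes were sparse. Ldha, the subunit that favours lactate formation, was at 29.6, 1.15, 22.1 and 32.3 CPM in WT and at 24.0, 1.06, 18.4 and 3.76 CPM in Emb knockdown (-0.85 ± 1.00, adjusted p = 0.753). In each genotype replicate 2 had 2 or fewer counts of Ldha, and the ranges overlapped. Ldhb, the subunit that favours pyruvate formation, was at 10.3, 0, 0.761 and 5.62 CPM in WT and at 0, 9.54, 7.02 and 1.25 CPM in Emb knockdown, with at most 18 counts in a library. It was not tested.

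Pyruvate enters mitochondria through a carrier built from MPC1 and MPC2. Mpc1 was at 2.57, 0, 1.52 and 0 CPM in WT and at 2.00, 2.65, 3.24 and 3.13 CPM in Emb knockdown, from 0 to 6 counts, and was not tested. Mpc2 was at 12.9, 4.60, 9.89 and 12.6 CPM in WT and at 2.00, 12.2, 18.9 and 3.76 CPM in Emb knockdown (-0.10 ± 0.77, adjusted p = 0.972). Neither carrier gene reached 3 times background in any library.

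The pyruvate dehydrogenase complex makes acetyl-CoA from pyruvate. Pdha1, the alpha subunit of its first enzyme, was at 12.9, 2.30, 9.13 and 21.1 CPM in WT and at 24.6, 6.36, 21.1 and 25.1 CPM in Emb knockdown (0.77 ± 0.74, adjusted p = 0.680). Pdhb (chromosome 14, 8165996 to 8173025), the beta subunit, was at 5.15, 0, 5.33 and 0 CPM in WT and at 18.0, 20.1, 7.57 and 7.52 CPM in Emb knockdown. The genotypes did not overlap in TMM-scaled CPM, with 0 to 7 counts in WT and 12 to 38 in the deeper Emb knockdown libraries. The 0 counts of WT 2 and WT 4 allow up to 3.45 and 4.22 CPM. Pdhb lay at 0 to 0.902 times background in WT and at 1.59 to 5.53 times in Emb knockdown. The log2 fold change of Pdhb was 2.24 ± 0.98 (edgeR, unadjusted p = 0.0429, adjusted p = 0.361). Dlat, the acetyltransferase core, was at 30.9, 49.4, 26.6 and 18.3 CPM in WT and at 68.6, 44.0, 23.8 and 33.8 CPM in Emb knockdown (0.44 ± 0.58, adjusted p = 0.783), with overlapping ranges. Pdhx, the component that holds dihydrolipoamide dehydrogenase on the core, was chosen here after its values were seen. It was at 0, 1.15, 3.04 and 1.41 CPM in WT and at 9.33, 16.4, 3.24 and 14.4 CPM in Emb knockdown, without overlap in TMM-scaled CPM. Relative to unscaled totals its genotypes overlapped, with 4 counts in WT 3 (of 954191) and 6 in Emb knockdown 3 (of 2024372). Pdhx reached the filter level in 0 WT and 2 Emb knockdown libraries and was not tested.

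The citrate cycle held 4 of the 6 members with an unadjusted p under 0.05. Idh3a, the catalytic subunit of NAD-dependent isocitrate dehydrogenase, was at 18.0, 25.3, 24.3 and 16.9 CPM in WT and at 42.0, 74.8, 15.1 and 53.3 CPM in Emb knockdown (1.12 ± 0.60, adjusted p = 0.438). Emb knockdown 3 was the lowest library of all and the other 3 were the highest. Suclg1 (chromosome 6, 73248382 to 73276911), the alpha subunit of both succinyl-CoA synthetases, was at 3.86, 2.30, 5.33 and 5.62 CPM in WT and at 10.7, 22.3, 7.57 and 73.9 CPM in Emb knockdown. In TMM-scaled CPM the 4 Emb knockdown libraries, which were deeper, all lay above the 4 WT libraries, with 14 to 118 against 2 to 7 counts. Suclg1 lay at 0.339 to 0.810 times background in WT and at 1.33 to 15.1 times in Emb knockdown. The log2 fold change of Suclg1 was 2.71 ± 0.85 (edgeR, unadjusted p = 0.00812, adjusted p = 0.295).

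Succinate dehydrogenase belongs to both the cycle and the respiratory chain. Sdha, its flavoprotein subunit, was at 24.4, 3.45, 7.61 and 2.81 CPM in WT and at 113, 7.95, 4.86 and 67.7 CPM in Emb knockdown (2.33 ± 1.06, unadjusted p = 0.0496, adjusted p = 0.375). Sdhd (chromosome 9, 50596357 to 50603812), a membrane anchor subunit, was at 0, 9.20, 6.85 and 15.5 CPM in WT and at 141, 7.95, 8.65 and 114 CPM in Emb knockdown (3.10 ± 1.17, unadjusted p = 0.0216, adjusted p = 0.320). For both subunits, Emb knockdown 1 and 4 were high and Emb knockdown 2 and 3 lay inside the WT range. The iron-sulfur subunit Sdhb was below the filter and the other anchor, Sdhc, had a log2 fold change of -0.41 (edgeR adjusted p = 0.869).

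Mdh2, the mitochondrial malate dehydrogenase that closes the cycle (chromosome 5, 135778480 to 135790398), was at 11.6, 9.20, 13.7 and 18.3 CPM in WT and at 575, 17, 16.8 and 22.6 CPM in Emb knockdown. Emb knockdown 1 held 863 counts of it, and of the other 3 only Emb knockdown 4 lay above the WT range. The log2 fold change of 3.57 ± 1.25 (edgeR, unadjusted p = 0.0147, adjusted p = 0.311) was 0.52 without Emb knockdown 1. The cytosolic form, Mdh1, had a log2 fold change of -1.09 (edgeR adjusted p = 0.574).

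The 7 tested citrate cycle genes outside the 5 above, Cs, Idh3g, Ogdh, Dlst, Sucla2, Sdhc and Mdh1, had log2 fold changes of -1.48 to 1.19 and adjusted p of 0.554 to 0.945 (edgeR). The lowest was Sucla2, the beta subunit of the ATP-forming succinyl-CoA synthetase, whose partner Suclg1 had a positive value. The highest of the 7 was Cs, citrate synthase, the entry enzyme of the cycle. The untested Idh2, Idh3b, Dld, Suclg2, Sdhb and Fh1 lay between 0 and 29.3 CPM, with means of 3.79 to 9.23 CPM.

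**Figure D2:**
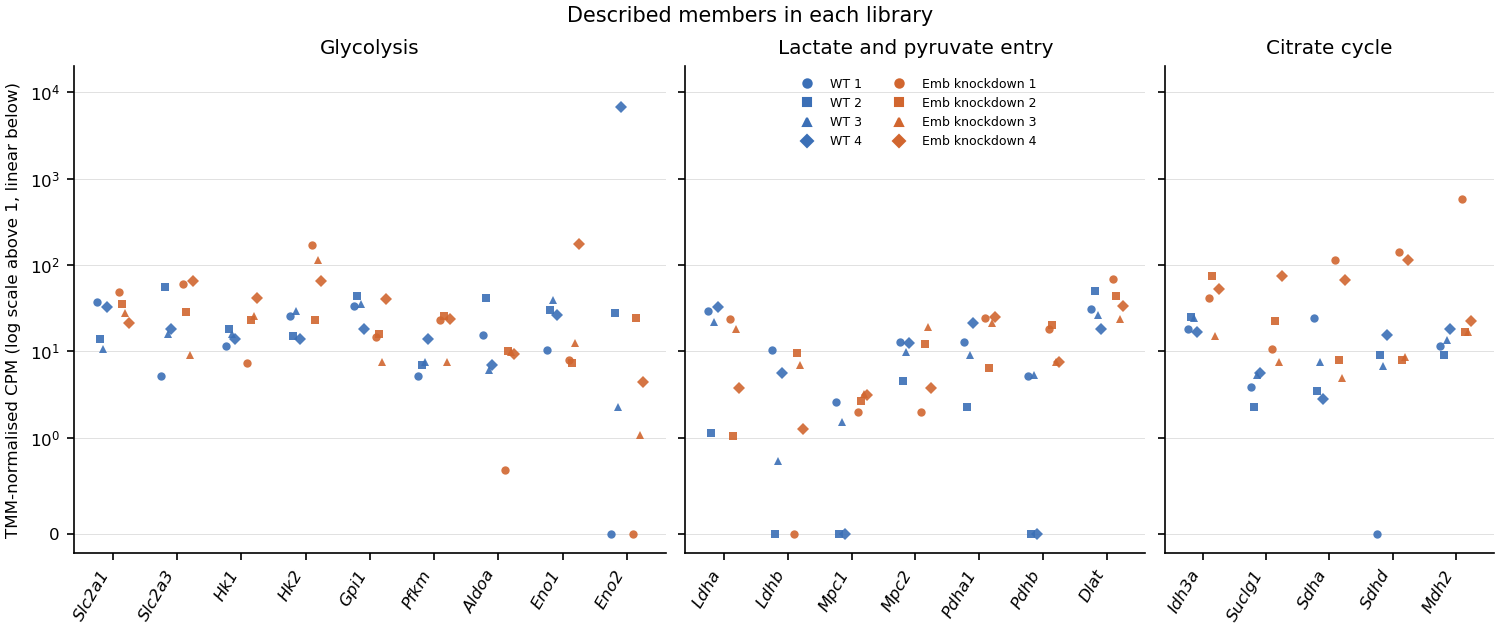
TMM-normalised CPM of the 21 members described library by library, with 1 symbol per library, WT in blue and Emb knockdown in orange; the axis is logarithmic above 1 CPM and linear below. Single libraries stand far from the rest for Eno2 (WT 4, 6761 CPM), Mdh2 (Emb knockdown 1, 575 CPM) and Eno1 (Emb knockdown 4, 177 CPM).

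Reading the 3 groups of steps side by side, the median log2 fold change was 0.47 over the 14 tested genes of glycolysis (11 above and 3 below 0), 0.44 over the 5 of lactate and pyruvate entry (3 and 2) and 0.91 over the 12 of the citrate cycle (8 and 4). Over all 31 it was 0.50, and over all 11353 genes tested 0.04. Leaving out 1 library also changed which members were tested, so the medians that follow are not over the same genes. The citrate cycle median was 0.25 over 10 members without Emb knockdown 1, a fit that held neither Suclg1 nor Sdhd. That of glycolysis was 0.20 over 14 without Emb knockdown 4. That of lactate and pyruvate entry was -0.028 over 4 without Emb knockdown 3, a fit that did not hold Pdhb. Without the library labelled Emb knockdown 2, whose Emb level was inside the WT range but under 3 times background, the medians were 0.51, 0.09 and 0.73. They were taken over 13, 4 and 11 members, with Pdhb and Suclg1 not among them. Scaling to library totals alone gave -0.20, -0.36 and 0.12, with 12 of the 31 members above 0 and all genes tested at -0.67. Scaling to the receptor genes gave 1.15, 1.13 and 1.57, with 25 above 0 and all genes at 0.64. Relative to the median of all genes, the 31 members stood at 0.46 with TMM, 0.47 with library totals and 0.55 with receptor scaling. A change of scaling shifts all genes nearly alike, so these values had to lie close together and say nothing about stability. With 1 library left out, the members tested in each fit stood between 0.19 (without WT 3) and 0.63 (without Emb knockdown 3). The medians of glycolysis, of lactate and pyruvate entry and of all 31 members were below 0 with library totals. That of the citrate cycle was above 0 with TMM, with library totals and with receptor scaling. Whether the groups of steps differ from one another was not tested.

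The 6 members with an unadjusted p under 0.05 had a positive log2 fold change in every setting that tested them, 12 to 17 settings each. They were picked by that p in the same libraries, so this shared direction is not independent evidence. No fit that left out an Emb knockdown library held Pdhb or Suclg1. Sdhd was not held by the fits without Emb knockdown 1 or Emb knockdown 4, its 2 high libraries. The number of members with such a p changed with the libraries used. It was 2 of 27 without Emb knockdown 1 (Hk2 and, in the other direction, Eno2), against 11.3% of all genes. Without Emb knockdown 4 it was 3 of 28, 2 of them higher (14.5% of all genes), and without Emb knockdown 2 it was 4 of 28, all higher (12.8%). Without WT 1 it was 8 of 39, 7 of them higher (11.15%). Without Emb knockdown 3 it was 8 of 27, 6 of them higher (13.2%). With all libraries, limma voom gave 2 (Hk2 and Pdhb, 2 of 31 against 10.4% of all genes) and library totals alone gave 3 (Mdh2, Suclg1 and, in the other direction, Gpi1, against 18.3%). With voom, Mdh2 had a log2 fold change of 1.70. Leaving out a library also changed which genes passed the filter, and Suclg1 and Pdhb were tested with 1 WT and 3 Emb knockdown libraries at the filter level, so both passed mainly through the genotype in which they were higher. With DESeq2's Wald test, 3 of 19 members with an adjusted p passed 0.05 (Hk2 at 0.0190, Suclg1 at 0.0152 and Sdhd at 0.0240), a share of 15.8% against 12.7% of all genes. Without a filter on low counts, edgeR called 2 of 45 members (Sdhd, adjusted p = 0.0212, and Mdh2, adjusted p = 0.00579) and 1.88% of all genes.

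Single libraries weighed on members about as often as on all genes. One library held more than 50% of the summed CPM of its 4 libraries for 11 of the 31 tested members in WT, against 37.2% of all genes, and for 12 of 31 in Emb knockdown, against 32.1%. The highest library of a member was an Emb knockdown library in 25 of 45 and a WT library in 20. WT 4 and Emb knockdown 1 each held the highest value of 9 members, and WT 1 and WT 2 of 3 each. These counts of highest libraries include the 14 untested members and were not computed over all genes. No difference from other genes can be read from them.

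Set against the receptor background per exonic kilobase, members stood higher in the Emb knockdown libraries than in WT, as protein-coding genes did. The number of members at 3 or more times background, a level chosen after seeing the data, was 12 to 16 of 45 in the WT libraries and 20 to 24 in the Emb knockdown libraries. Of all protein-coding genes, 15.7 to 22.0% per WT library and 22.9 to 32.2% per Emb knockdown library lay at that level. The receptor genes used as the divisor held 0.833 to 1.16% of the counts of a WT library and 0.262 to 0.622% of those of an Emb knockdown library, without overlap. The median member stood at 1.12 to 1.88 times background among WT libraries and at 2.64 to 3.65 times among those of Emb knockdown. The values of the median protein-coding gene, 0.718 to 1.17 times for WT and 1.43 to 1.77 times for Emb knockdown, were also higher in the latter. No member reached 3 times background in all 4 WT libraries. In all 4 Emb knockdown libraries 6 did, namely Slc2a1, Hk2, Gapdh, Dlat, Sdhd and Mdh2, and 4 did in none of the 8, namely Mpc1, Mpc2, Dld and Suclg2. By step, the median member of glycolysis was at 1.12 to 2.44 times background for WT and 2.47 to 4.48 times for Emb knockdown. For the citrate cycle these ranges were 0.989 to 2.33 and 2.10 to 4.28 times, and for lactate and pyruvate entry 0.218 to 1.76 and 1.63 to 4.17 times.

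**Figure D3:**
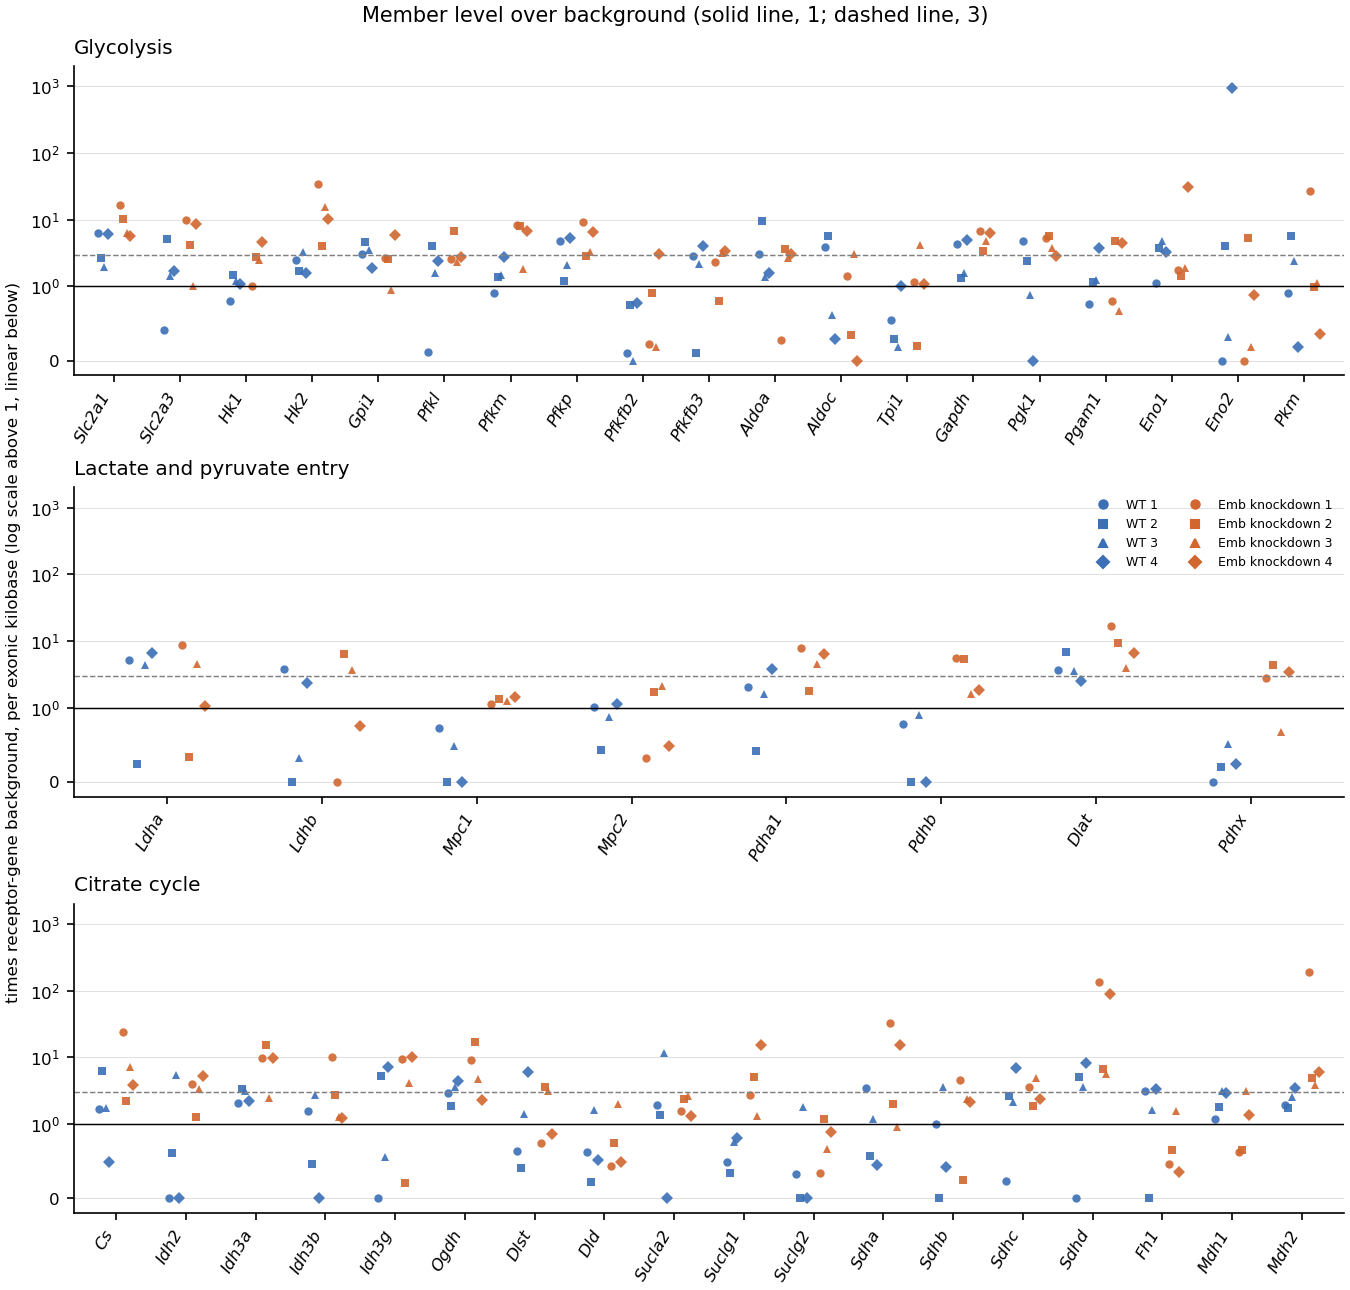
Level of all 45 members in each library as multiples of the receptor-gene background per exonic kilobase, with WT in blue and Emb knockdown in orange; the solid line marks 1 and the dashed line 3, and the axis is logarithmic above 1 and linear below. From 12 to 16 members per WT library and 20 to 24 per Emb knockdown library lie at or above the dashed line.

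Several steps can use more than one gene, and the share of each gene was taken from counts per exonic kilobase. Ranges below run over 4 libraries, and single values carry an exact 95% Clopper-Pearson interval that covers counting error only. Slc2a1 made up 34.1 to 93.7% of Slc2a1 plus Slc2a3 in WT and 40.1 to 86.1% in Emb knockdown. Hk1 made up 23.9 to 46.3% of the 2 hexokinases in WT and 2.92 to 41.2% in Emb knockdown, so Hk2 was the larger share in every library. In WT 2, WT 4 and the library labelled Emb knockdown 2 the interval of the Hk1 share reached above 50% (28.0 to 66.1%, 20.7 to 65.2% and 30.9 to 52.2%), so the order of the hexokinases is not settled there. The lowest Hk1 share, 2.92% (1.46 to 5.19%, of 267 counts), was that of Emb knockdown 1, the library with the most Hk2.

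Of the 3 phosphofructokinases, Pfkm made up 15.7 to 29.0% in WT and 24.7 to 45.7% in Emb knockdown. Pfkp ranged from 18.5 to 82.3% and from 16 to 46.1%, and Pfkl from 1.97 to 60.2% and from 12.9 to 38.3%. The order of the 3 forms thus differed between libraries of 1 genotype. Aldoa made up between 44.2 and 84.9% of Aldoa plus Aldoc for WT and between 15.7 and 100% for Emb knockdown, on 6 to 60 counts of both genes per library.

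Eno1 took 0.344% (0.207 to 0.537%, of 4830 counts) of the enolases in WT 4 and 48.7 to 100% in the other WT libraries. In Emb knockdown its share was 21 to 100%. Ldha took 57.7 to 100% of the lactate dehydrogenases in WT and 5.01 to 100% in Emb knockdown, where the lowest value, 5.01% (0.590 to 18.0%), rested on 20 counts. In WT 2 the Ldha share of 100% stood for 1 count, with an interval of 1.20 to 100%. For all 6 sets of genes the genotypes overlapped.

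**Figure D4:**
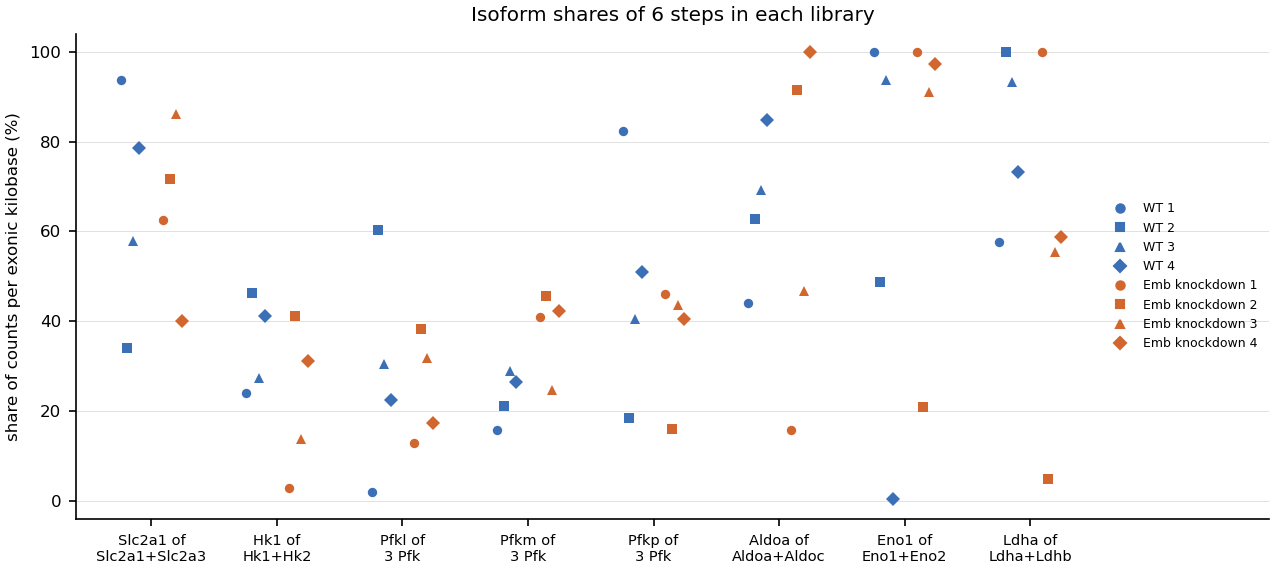
Share of each gene in the summed counts per exonic kilobase of its set (percent, vertical axis) in each library, with WT in blue and Emb knockdown in orange and 1 symbol per replicate. The shares of both genotypes overlap in every column, and Eno1 runs from 0.344% in WT 4 to 100% in WT 1 and Emb knockdown 1.

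Outside the 45 members, 90 genes of neighbouring steps and their regulators were read from the same fit. Of these 54 were tested, 25 with positive and 29 with negative log2 fold changes, and 0 passed the adjusted p (edgeR). An unadjusted p under 0.05 was found for 2 of the 54, against 13.3% of all genes: Slc16a1 and Pgm2, both with higher values in Emb knockdown. The median log2 fold change was -0.57 over 9 genes of other glycolysis and gluconeogenesis steps, -0.43 over 9 of lactate and pyruvate handling, -0.21 over 13 of the cycle and malate shuttles and 0.03 over 13 regulators. It was 0.97 over 4 pentose phosphate genes, all 4 above 0, and 0.68 over 6 glycogen genes.

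Slc16a1, the monocarboxylate transporter MCT1, was at 10.3, 10.3, 2.28 and 19.7 CPM in WT and at 542, 23.3, 5.94 and 10.7 CPM in Emb knockdown (3.78 ± 1.42, edgeR adjusted p = 0.320), with Emb knockdown 1 far above the rest. Slc16a7, the neuronal transporter MCT2, was at 28.3, 17.2, 13.7 and 18.3 CPM in WT and at 58.0, 35.5, 46.5 and 32.0 CPM in Emb knockdown (1.15 ± 0.54, edgeR adjusted p = 0.379). Its genotypes did not overlap in TMM-scaled CPM. Relative to unscaled totals they overlapped, with 22 counts in WT 1 (of 734159) and 51 in Emb knockdown 4 (of 2190413). Pgm2, a phosphoglucomutase that links glycogen and pentose breakdown to glycolysis, was at 6.43, 6.90, 4.56 and 5.62 CPM in WT and at 25.3, 45.6, 25.4 and 11.9 CPM in Emb knockdown (2.19 ± 0.64, edgeR unadjusted p = 0.00499, adjusted p = 0.295), also without overlap.

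Pck2, the mitochondrial phosphoenolpyruvate carboxykinase, had means of 45 ± 12.3 CPM for WT and 18.0 ± 13.6 CPM for Emb knockdown (± SD over 4 libraries; edgeR adjusted p = 0.507). Hkdc1, a further hexokinase, had 34.9 ± 12.4 and 20.2 ± 8.53 CPM (edgeR adjusted p = 0.572). The mitochondrial carriers Slc25a11 for oxoglutarate and malate and Slc25a12 for aspartate and glutamate had log2 fold changes of 2.29 ± 1.18 and 2.07 ± 1.08 (edgeR adjusted p = 0.422 and 0.426), set by Emb knockdown 1 at 131 CPM and by Emb knockdown 2 at 333 CPM. The pentose phosphate genes Pgls and Taldo1 had 1.69 ± 0.78 and 1.29 ± 1.06 (edgeR adjusted p = 0.378 and 0.619), and the glycogen phosphorylase gene Pygl 1.08 ± 0.96 (adjusted p = 0.654). Among the regulators, Egln1, an oxygen sensor that marks hypoxia-inducible factor for removal, had a log2 fold change of 1.63 ± 0.98 and Myc one of 1.16 ± 0.87 (edgeR adjusted p = 0.490 and 0.584).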

How the data were processed

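The values deposited by the authors are raw counts, 1 column for each of 8 libraries over 55414 genes; a Smart-seq kit was used, per the labels' protocols. Per the submitters' processing notes, cutadapt and the build mm10 were used; for the aligner, counter, strand setting and annotation nothing is stated in the sources used here. Genes were taken by symbol, and positions and exon lengths came from GENCODE M21 (GRCm38). The test was that of edgeR 4.0.16 (R 4.3.3), with filterByExpr (defaults: minimum count 10, total 15), TMM factors, robust quasi-likelihood fit with genotype as the only term, and Benjamini-Hochberg adjustment over 11353 genes. Log2 CPM used a prior count of 2. The fit was also run on simulated data, but the outcome is not reported here and no statement above rests on it. Totals ranged from 698930 to 2712754 counts; amplified reads are not independent molecules, so intervals and the 3-count limit of a 0 cover counting error only. Alternatives were other scaling, no filter, DESeq2 1.42.0, limma 3.58.1 voom, the replicate number as a block, 3 genes with uneven shares (Rn18s-rs5, Gm10800, Gm10801) left out, and each library left out.

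Members described library by library were those with the smallest unadjusted p in each group of steps, those with the highest counts per exonic kilobase, the pairs Ldha and Ldhb, Hk1 and Hk2, Eno1 and Eno2, and both pyruvate carrier genes; other pathway genes were up to 2 per list by smallest p. The members and lists were chosen with earlier results of these data known. The 3-fold level over background was chosen after seeing the data. Some marker genes are not reported here.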

Additional observations from a re-analysis of the deposited data

Results flagged for a closer look

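In 11 members, 1 library stood far from the other 3 of its genotype: its gap to the nearest of them, as a share of the range of the 4 values, exceeded Dixon's 95% limit. All 45 members were examined in both genotypes, 90 sets of 4 values. Chance alone would mark about 1 in 20 if the values were normally distributed, which CPM from sparse counts are not. The share of such sets over all genes was not computed, so no excess among members can be read from these. In glycolysis, Eno2 was at 6761 CPM in WT 4, against 0 to 27.6 CPM in the other WT libraries, and Pgam1 at 11.2 CPM in WT 4, against 2.57 to 3.804 CPM. Eno1 was at 177 CPM in Emb knockdown 4, against 7.42 to 12.4 CPM in the other Emb knockdown libraries, Pkm at 112 CPM in Emb knockdown 1, against 1.88 to 7.02 CPM, and Pfkl at 43.5 CPM in the library labelled Emb knockdown 2, against 14.7 to 19.5 CPM. Low values stood apart for Aldoa, at 0.666 CPM in Emb knockdown 1 against 9.40 to 10.1 CPM, and Pfkm, at 7.57 CPM in Emb knockdown 3 against 23.3 to 26.0 CPM. In the citrate cycle, Mdh2 was at 575 CPM in Emb knockdown 1, against 16.8 to 22.6 CPM. Dld was at 9.19 CPM and Fh1 at 6.48 CPM in Emb knockdown 3, against 1.33 to 2.65 and 1.25 to 2.12 CPM, and Idh2 at 21.3 CPM in WT 3, against 0 to 2.30 CPM. No cause was tested.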

How the results depend on the processing

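With the edgeR test, 0 genes passed the adjusted p with TMM factors, DESeq2 size factors, receptor scaling, the replicate block, without 3 uneven genes and without any 1 library, as with limma voom; 1508 genes had an unadjusted p under 0.05 in the reported fit, 1178 with voom and 918 with the block. It called 2 genes with library totals alone and 910 without a filter, and DESeq2's Wald test called 749; of these 0, 2 and 3 were members. With library totals alone the medians were -0.20 for glycolysis, -0.36 for lactate and pyruvate entry, 0.12 for the citrate cycle and -0.20 for all members; with receptor scaling they were 1.15, 1.13, 1.57 and 1.19. Leaving out 1 library gave medians of 0.20 to 0.61, -0.028 to 0.91, 0.25 to 1.01 and 0.23 to 0.66 in the same order, each over the members that its fit tested. The cause of these shifts was not tested. Of 272 values of named members under alternatives, 255 kept their direction without newly passing the threshold, 5 newly passed it and 12 changed sign. Most alternatives called 0 genes of all tested, so in those fits the side of the threshold says nothing about stability. A missing adjusted p was counted as unchanged, as for Pfkm, Aldoa, Eno1, Mpc2, Pdha1, Pdhb and Mdh2 with DESeq2. Library totals alone gave -0.20 for Slc2a1, -0.0011 for Slc2a3 and -0.36 for Dlat. Eno1 was at -0.40 with voom, -0.47 with the replicate block and between -1.50 (without Emb knockdown 4) and 1.297 with 1 library left out. Mpc2 was at 0.43 with receptor scaling, 0.14 without a filter and -0.69 to 0.23 with 1 library left out. Fewer genes passed the filter without 1 Emb knockdown library. None of those fits held Aldoa, Pdhb, Suclg1 or Emb, and those without Emb knockdown 1 or Emb knockdown 4 did not hold Sdhd. Pdhb, Suclg1 and Emb were also absent from the fit without 3 uneven genes. With the replicate block the medians were 0.42, 0.42, 0.87 and 0.50, 2 members (Hk2 and Suclg1) had an unadjusted p under 0.05 and Mdh2 was at 1.44; deviations of same-numbered libraries correlated at 0.0113 to 0.0337, and 2 of 4 numbers matched best with their own, so the numbers were not treated as pairs. Depth limits these results: 14 of 45 members were too sparse to test, and the median member lay at 1.12 to 1.88 times the receptor background in WT.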
